A study of Mus musculus with 12 samples.

Results

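The 10 genes of DNA replication and the cell cycle, Mcm2, Mcm3, Mcm4, Mcm5, Mcm6, Mcm7, Rrm1, Cdk1, Pcna and Tyms, were followed in brown adipose tissue of mice with extra SIRT1. They were found as every array probe that carries 1 of these 10 gene symbols in the platform annotation, which gave 10 of 16593 annotated genes and 21 of 25697 probes. The number of probes was 1 each for Mcm2, Mcm3, Mcm5, Mcm7, Rrm1 and Pcna, 3 each for Mcm4 and Cdk1, 4 for Mcm6 and 5 for Tyms. Total RNA of whole brown fat was hybridised to Illumina bead arrays, with 6 samples of wild-type (WT) mice and 6 of SIRT1tg mice, whose genotype is given as SIRT1Tg/Tg. Both groups had the C57Bl/6N background and were 3 months old, and no treatment is named. The promoter that drives the transgene, and whether each sample is 1 animal, are not given in the labels, so a p-value covers only how these samples vary.

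Before a cell copies its DNA, the Mcm2 to Mcm7 proteins are loaded on replication origins as a ring, which later opens the double helix at the fork. Pcna is the sliding clamp that holds DNA polymerase on its template, Rrm1 and Tyms make the building blocks of DNA, and the kinase Cdk1 drives entry into mitosis. Transcripts of these genes rise in dividing cells, largely under E2F transcription factors, and are low in resting cells. In adult brown fat most adipocytes do not divide, and dividing cells include precursor, endothelial and immune cells.

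Most promoters of the member genes hold short motifs that are known from cell cycle genes, and 4 of them are shown as examples. The promoters of Tyms, with 0 matches to these motifs, and Pcna, with 1 CCAAT box, also belong to tested genes and are not shown. All promoters come from RefSeq (GRCm38.p6) and run from 250 bases before to 50 bases after the annotated start, on the strand of the gene. RefSeq promoters matched 9 of the 10 genes, 2 of them for Mcm7 and none for Mcm4. Capitals mark the E2F motif (TTTCCCGC, TTTCGCGC, TTTGCCGC or TTTGGCGC), the CCAAT box, which is bound by NF-Y, and the cell cycle homology region (TTTGAA or TTCGAA), each searched on both strands, and neighbouring or overlapping matches run together.
Mcm5, chr8:75109259-75109558, plus strand.
Mcm5: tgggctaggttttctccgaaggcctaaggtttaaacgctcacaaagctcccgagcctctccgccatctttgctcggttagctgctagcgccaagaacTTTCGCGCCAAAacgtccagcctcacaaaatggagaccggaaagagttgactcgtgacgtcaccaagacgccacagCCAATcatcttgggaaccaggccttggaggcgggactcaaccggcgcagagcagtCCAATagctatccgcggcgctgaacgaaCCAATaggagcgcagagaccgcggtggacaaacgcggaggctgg
Mcm6, chr1:128359656-128359955, minus strand.
Mcm6: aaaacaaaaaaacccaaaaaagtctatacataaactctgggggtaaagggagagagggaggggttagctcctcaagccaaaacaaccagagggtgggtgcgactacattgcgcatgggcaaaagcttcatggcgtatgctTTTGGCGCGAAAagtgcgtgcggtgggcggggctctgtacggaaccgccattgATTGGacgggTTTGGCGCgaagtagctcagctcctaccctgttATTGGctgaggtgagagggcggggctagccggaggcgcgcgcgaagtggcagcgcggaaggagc
Cdk1, chr10:69352863-69353162, minus strand.
Cdk1: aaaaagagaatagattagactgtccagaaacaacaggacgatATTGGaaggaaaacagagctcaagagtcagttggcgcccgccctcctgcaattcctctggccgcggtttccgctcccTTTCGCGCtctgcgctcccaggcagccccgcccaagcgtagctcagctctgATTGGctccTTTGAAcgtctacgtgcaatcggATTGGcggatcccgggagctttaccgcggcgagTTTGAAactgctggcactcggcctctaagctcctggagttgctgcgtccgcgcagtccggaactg
Rrm1, chr7:102441445-102441744, plus strand.
Rrm1: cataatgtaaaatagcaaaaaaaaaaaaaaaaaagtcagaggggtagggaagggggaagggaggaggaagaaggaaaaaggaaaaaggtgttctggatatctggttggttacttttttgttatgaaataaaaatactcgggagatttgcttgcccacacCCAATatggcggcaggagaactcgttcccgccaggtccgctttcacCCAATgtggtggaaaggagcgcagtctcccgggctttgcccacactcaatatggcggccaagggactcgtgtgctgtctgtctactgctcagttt
The E2F letters occurred in 5 of the 10 member promoters (Mcm3, Mcm5, Mcm6, the first of Mcm7, and Cdk1), and in 2.26% of all 32851 promoters of the same length. CCAAT occurred in 9 of 10, all but Tyms, against 37.4% of all promoters. The cell cycle homology region occurred in 3 of 10 (Mcm2, the first of Mcm7, and Cdk1), against 19.2%. In Mcm5 the TTTCGCGC begins at position -153 from the start and overlaps a match on the opposite strand. The CCAAT boxes of Mcm5 begin at -77, at -22 and, past the start, at 7. In Cdk1 the TTTCGCGC begins at -131, and the matches to TTTGAA begin at -71 and -15, each shortly downstream of a CCAAT box on the opposite strand, at -80 and -48. A match describes the letters in this window and is no measured binding site.

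The arrays were alike in quality. Between 43.7% and 47.1% of probes were detected on an array, by a detection p-value under 0.05 against the negative control beads. Any pair of arrays correlated at 0.960 to 0.990 across the 11413 probes detected on at least 6 of the 12 arrays. The Sirt1 probe matched the labels, with a normalised log2 signal of 6.43 to 7.26 (median 6.86) in WT and 7.96 to 8.58 (median 8.22) in SIRT1tg, a difference of 1.37 ± 0.14 (SE, n = 6 each; limma adjusted p = 0.000348). In the whole comparison 12 probes rose and 6 fell in SIRT1tg among 11413 probes detected on at least 6 of the 12 arrays. The columns of the non-normalised table carry a number that the labels do not explain, and in each group these numbers fall into a low and a high range of 3 arrays each. Arrays are named here 1 to 6 within a group by the order of that number, so that 1 to 3 are the low and 4 to 6 the high range, and these names are not the replicate numbers of the sample titles. The number of arrays and the low signal over background limit the precision of every value below.

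No member of the replication and cell cycle genes passed the test between genotypes, and the members that could be tested were mostly lower in SIRT1tg. Of the 21 probes, 9 from 7 genes were detected on enough arrays to be tested, and 0 of them passed an adjusted p of 0.05 (limma, Benjamini-Hochberg over 11413 probes), against 0.158% of all probes tested. At an unadjusted p under 0.05, 5 of the 9 were lower, namely 1 probe each of Mcm4, Mcm5, Rrm1, Cdk1 and Tyms, and 0 were higher, against 6.8% of all tested probes that were lower at that level. The Cdk1 probe, detected on 5 WT arrays and 1 SIRT1tg array, reached the limit of 6 arrays mainly through the group where it was higher, so its place in these counts is not independent of its direction. In direction, 8 of 9 were lower, against 52.2% of all. Their median log2 difference was -0.33, and the median over all tested probes was -0.01. Several of these probes read the same gene, Mcm6. By gene, each read by its brightest tested probe, 6 of 7 were lower, against 53.0% of all genes tested. In 0 of the 9 did every SIRT1tg array lie below every WT array, as was so for 0.605% of all tested probes. In bulk tissue, fewer cells of a type and less RNA per cell cannot be told apart.

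Several members lay close to background, and this decided which could be tested. On all 12 arrays 4 probes were detected, 1 each of Mcm4, Mcm5, Rrm1 and Tyms, and 6 probes were detected on none. Mcm2, Mcm3 and Mcm7, each read by 1 probe, were not tested, being detected on 3, 1 and 5 of the 12 arrays. Counted over all 21 probes, 57 of 126 probe and array pairs (45.2%) were detected in WT and 49 of 126 (38.9%) in SIRT1tg, while over all probes of the arrays the shares were 45.9% and 45.3%. With a detection p under 0.01, 43 and 33 of the 126 pairs remained, and the shares over all probes at that level were not worked out. A probe of Cdk1 (5 WT arrays against 1 SIRT1tg array) and the probe of Mcm7 (4 against 1) were detected on at least 3 more WT than SIRT1tg arrays. This was so for 1.29% of all probes. The opposite was so for 0 member probes, but its share over all probes was not worked out. The probes of Cdk1 and Mcm7 hold most of the difference between 57 and 49 pairs, which is not spread over the members.

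**Figure D1:**
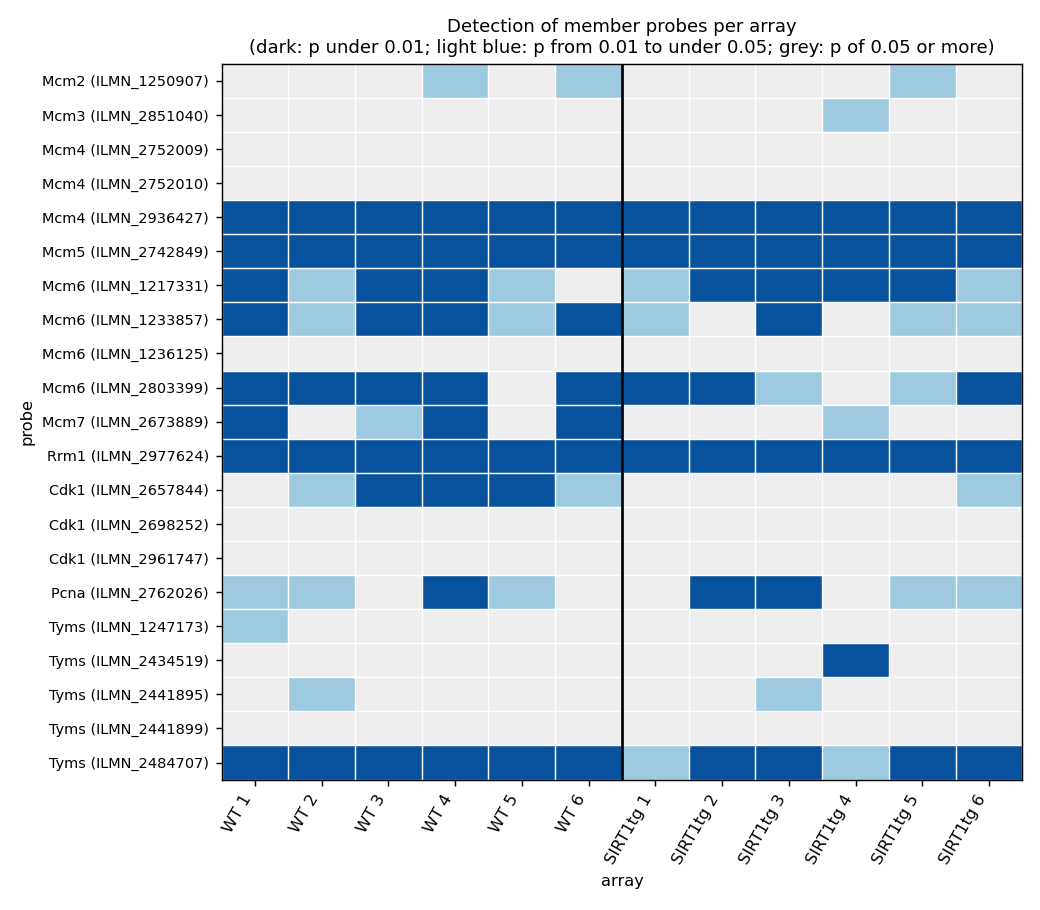
Detection of each of the 21 member probes (rows) on each of the 12 arrays (columns), where dark cells have a detection p under 0.01, light blue cells a p from 0.01 to under 0.05, and grey cells a higher p. The rows of Mcm4 (ILMN_2936427), Mcm5 and Rrm1 are dark throughout, and the row of Cdk1 (ILMN_2657844) is coloured on 5 WT arrays and 1 SIRT1tg array.

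Among the subunits of the MCM ring, Mcm4 and Mcm5 were lower in SIRT1tg without passing the test, and the others stood nearer to 0 or to background. The detected probe of Mcm4 (ILMN_2936427), a catalytic subunit, read a normalised log2 signal of 6.87 to 7.41 (median 7.18) in WT and 6.65 to 6.93 (median 6.79) in SIRT1tg. The groups overlapped slightly, as 4 WT arrays lay above every SIRT1tg array and 5 SIRT1tg arrays lay below every WT array. The difference was -0.36 ± 0.11 (SE, n = 6 each), a 1.28-fold lower signal, with a limma unadjusted p of 0.0059 and an adjusted p of 0.153. As deposited, before normalisation, its median bead signal was 231 in WT and 197 in SIRT1tg. The other 2 probes of Mcm4 were detected on 0 of 12 arrays.

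Mcm5 (ILMN_2742849), a subunit at the gate of the ring, read 5.15 to 5.79 (median 5.40) in WT and 4.94 to 5.42 (median 5.04) in SIRT1tg on the log2 scale. WT 3 and WT 4 were the highest arrays, 4 SIRT1tg arrays lay below every WT array, and the other 2 lay within the WT range. The difference was -0.33 ± 0.13 (SE, n = 6 each), with an unadjusted p of 0.023 and a limma adjusted p of 0.250.

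The probes of Mcm6, another subunit of the ring, differed in what they showed. Of 4 probes, ILMN_1236125 was detected on no array and the other 3 were tested, with differences of -0.07 (95% interval -0.41 to 0.28), -0.13 (-0.35 to 0.09) and -0.28 (-0.62 to 0.06) for ILMN_1217331, ILMN_1233857 and ILMN_2803399. The limma adjusted p was 0.903, 0.623 and 0.463 in that order. Each of the 3 overlapped widely between groups, and ILMN_1217331 spread over WT more than over SIRT1tg, at 4.55 to 5.39 against 4.66 to 5.16. In WT it read high on WT 1, WT 3 and WT 4 and low on the other arrays.

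The remaining subunits were read near background. Mcm7 was detected on 4 WT arrays and 1 SIRT1tg array, at log2 signals of 4.39 to 4.86 (median 4.70) and 4.32 to 4.66 (median 4.38). Fitted with all 25697 probes and no detection filter, its difference was -0.23 (95% interval -0.43 to -0.02), with an unadjusted p of 0.033 and a limma adjusted p of 0.458. Mcm2 was detected on 2 WT arrays and 1 SIRT1tg array and stood at -0.07 in that fit. Mcm3 was detected on 1 SIRT1tg array alone and stood at 0.09. On most arrays these 3 signals were not above background, and so the differences are between signals near background.

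The deoxynucleotide enzymes Rrm1 and Tyms were each lower by a size like that of Mcm4 and did not pass the test either. Rrm1 (ILMN_2977624), the large subunit of ribonucleotide reductase, read a log2 signal of 6.25 to 6.80 (median 6.38) in WT and 5.54 to 6.26 (median 6.18) in SIRT1tg. Of the 6 WT arrays, 5 lay above every SIRT1tg array, and 5 SIRT1tg arrays lay below every WT array, with WT 6 standing high and SIRT1tg 1 standing low. The difference was -0.35 ± 0.13 (SE, n = 6 each), with an unadjusted p of 0.017 and a limma adjusted p of 0.224, and it was -0.24 without SIRT1tg 1.

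Tyms, thymidylate synthase, had 1 probe detected on all arrays (ILMN_2484707), at 4.70 to 5.71 (median 5.39) in WT and 4.64 to 5.22 (median 4.93) in SIRT1tg. WT 5 and SIRT1tg 1 were the lowest arrays of their groups, and 4 WT arrays lay above every SIRT1tg array. The difference was -0.37 ± 0.16 (SE, n = 6 each), with an unadjusted p of 0.030 and a limma adjusted p of 0.278. The other 4 probes of Tyms were each detected on at most 2 arrays. A probe annotated to the pseudogene Tyms-ps, detected on all 12 arrays, differed by -0.42 ± 0.15 (SE, n = 6 each; limma adjusted p = 0.204), and whether the Tyms probe also binds RNA of the pseudogene was not tested.

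Pcna, the sliding clamp, was the 1 tested member whose signal was higher in SIRT1tg, by an amount within its error. It was detected on 4 arrays of each group and read 4.43 to 4.85 (median 4.56) in WT and 4.53 to 4.82 (median 4.67) in SIRT1tg. The ranges overlapped almost fully, and the difference was 0.06 (95% interval -0.15 to 0.26; limma adjusted p = 0.843).

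Cdk1, the mitotic kinase, was detected on more WT than SIRT1tg arrays. Its probe ILMN_2657844 was detected on 5 WT arrays and 1 SIRT1tg array, and read 4.42 to 5.17 (median 4.75) in WT and 4.26 to 4.62 (median 4.38) in SIRT1tg. The highest signals were on WT 5 and WT 4, SIRT1tg 6 was the 1 SIRT1tg array with a detected signal, and 4 WT arrays lay above every SIRT1tg array. The difference was -0.35 ± 0.12 (SE, n = 6 each), with an unadjusted p of 0.0099 and a limma adjusted p of 0.179. The other 2 probes of Cdk1 were detected on 0 of 12 arrays. Of these, ILMN_2961747 was higher in SIRT1tg by 0.11 with an unadjusted p of 0.013 in the fit of all probes, a difference between signals that were not above background.

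**Figure D2:**
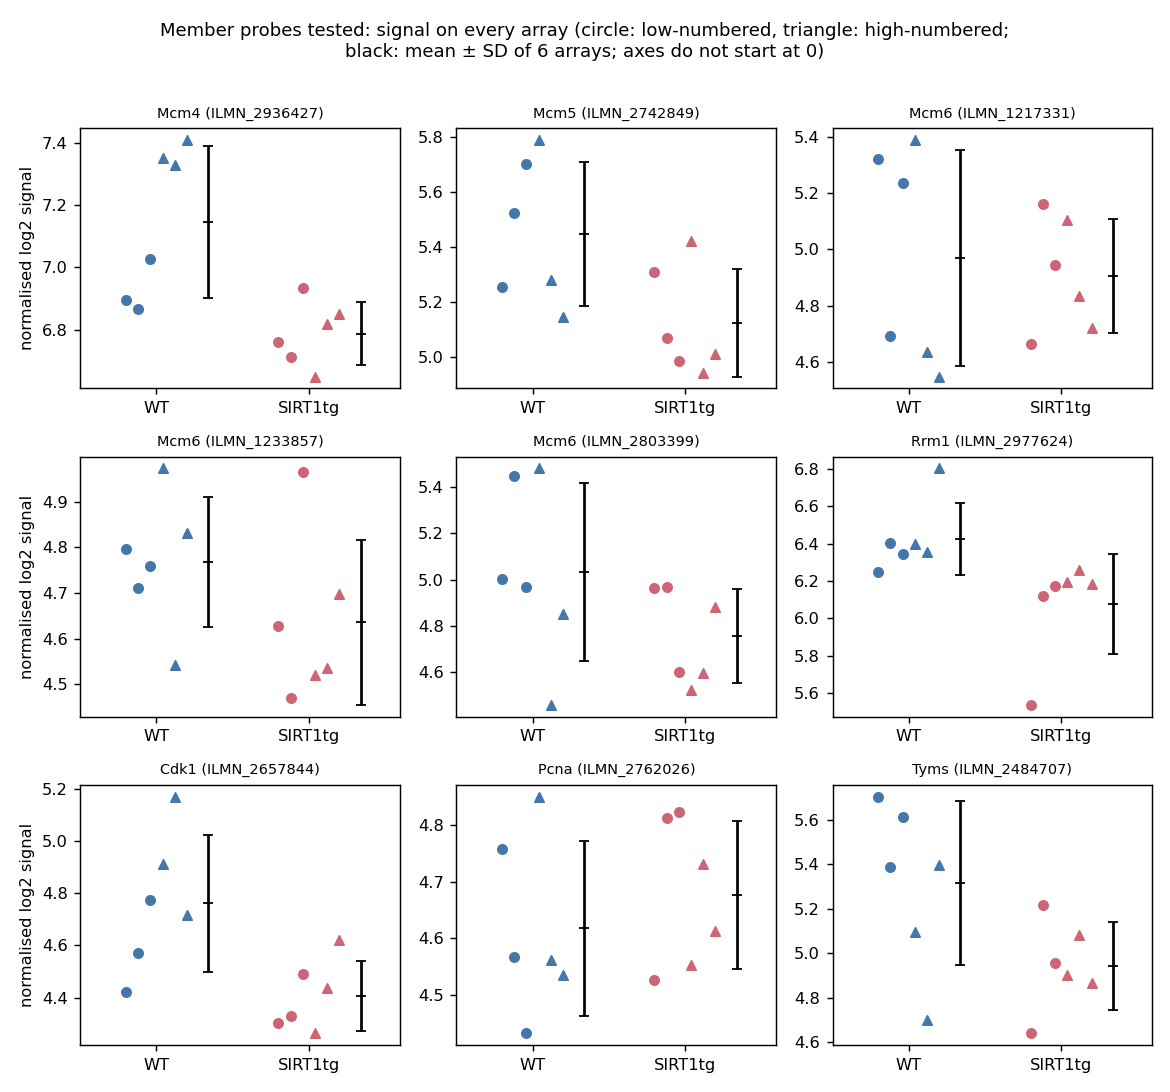
Normalised log2 signal of the 9 tested member probes on every array, with circles for low-numbered and triangles for high-numbered arrays and the mean ± SD of 6 arrays in black. The axes do not start at 0, and in every panel the points of the groups overlap, with Rrm1 and Mcm4 closest to separation.

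Without the detection filter, 12 of the 21 member probes were lower in SIRT1tg, against 50.3% of all 25697 probes. At an unadjusted p under 0.05, 6 were lower, against 4.72% of all probes, and 1 was higher, against 4.83%. The adjusted p passed for 0 members, and the median log2 difference was -0.07, against 0.00 over all probes. The 12 probes below the detection filter stood between -0.23 and 0.19.

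The table of values that the authors processed also gave lower values for these probes. In it 0 member probes passed (0.166% of 11425 probes did), and 5 were lower at an unadjusted p under 0.05, against 6.6% of all. These were the same 5 probes, at -0.39 for Mcm4, -0.54 for Mcm5, -0.43 for Rrm1, -0.46 for Cdk1 and -0.65 for Tyms, on the log2 scale with values under 10 set to 10. In the authors' linear units, the probe of Mcm4 read 114 to 170 (median 144) in WT and 96.1 to 120 (median 107) in SIRT1tg. Cdk1 read 5.02 to 23.9 (median 13.0) and 0.259 to 10.1 (median 3.87), so that 2 of 6 WT and 5 of 6 SIRT1tg values were set to the floor. On every array 6 member probes lay at or under the floor, and these carry no difference.

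**Figure D3:**
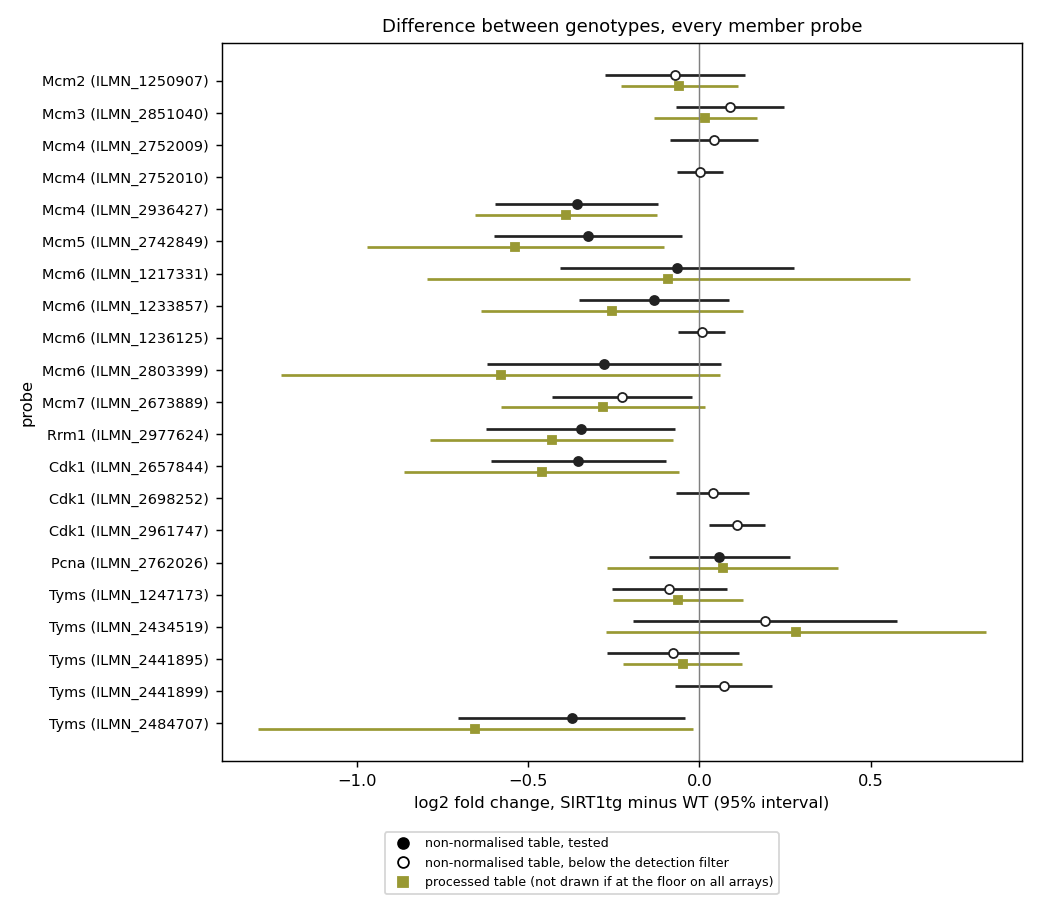
Log2 difference between SIRT1tg and WT with its 95% interval for each of the 21 member probes, in the non-normalised table (filled black if tested, open if below the detection filter) and in the processed table (squares, drawn unless at the floor on all arrays). The intervals of Mcm4 (ILMN_2936427), Mcm5, Rrm1, Cdk1 (ILMN_2657844) and Tyms (ILMN_2484707) lie below 0 in both tables, and that of Pcna spans 0.

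The differences were set out within each number range, since the ranges may mark separate runs. Of the 9 tested probes, 7 were lower in SIRT1tg in both ranges. The share of all tested probes that were lower in both was not worked out, so this count only describes the members. Mcm5 stood at -0.37 and -0.28 in the low and high range, Rrm1 at -0.39 and -0.31, and Cdk1 at -0.22 and -0.49. Mcm4 stood at -0.13 in the low and -0.59 in the high range, a difference between ranges of -0.46 with an unadjusted p of 0.013 (limma adjusted p = 0.610), and Tyms at -0.63 and -0.12, with an unadjusted p of 0.070 (limma adjusted p = 0.719). With the number range as a block, 110 probes of all passed and 0 members did, the lowest limma adjusted p being 0.0893, for Mcm4.

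Related genes of the cell cycle were described by lists chosen with earlier results of these data known, reading each gene by its brightest tested probe. Of 8035 such genes, 9 rose and 3 fell, 53.0% were lower, 7.62% were lower at an unadjusted p under 0.05, and the median difference was -0.01. In each of the 6 lists 0 genes passed the adjusted p. The mitosis list stood lowest and held the most genes that could not be tested, and the lists of origin licensing, deoxynucleotide synthesis, G1 control and cell cycle brakes had medians near that of all genes.

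Of the origin licensing and helicase partners, 12 of 25 were tested, 7 lower and 5 higher, with a median of -0.01. Orc6, a subunit of the origin recognition complex, stood at -0.33 (limma adjusted p = 0.175), and Mcm10, which helps start the helicase, at -0.31 (0.272), being detected on 5 WT and 2 SIRT1tg arrays. Gins4, a part of the GINS complex of the active helicase, stood at -0.21, and Dbf4, the activator of the Cdc7 kinase, at 0.17. Mcmbp, which binds the MCM proteins, stood at -0.07 and -0.01 by its 2 tested probes.

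Of the fork and polymerase genes, 22 of 32 were tested, 16 lower and 6 higher, with a median of -0.09. Fen1, the nuclease that trims Okazaki fragments, stood at -0.33 (limma adjusted p = 0.10). The fork protection gene Tipin stood at -0.22, the replication protein A subunit Rpa3 at -0.27 and the polymerase epsilon subunit Pole4 at 0.27. Of the deoxynucleotide genes, 9 of 13 were tested, 7 lower and 2 higher, with a median of -0.02. Samhd1, which breaks deoxynucleotides down, stood at -0.32 (limma adjusted p = 0.319), the kinase Dtymk at -0.14, Shmt1, which supplies folate units, at 0.18, and Rrm2b, a small subunit of ribonucleotide reductase, at -0.07. Rrm2, the partner of Rrm1 in dividing cells, was detected on too few arrays to be tested.

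Of the mitosis genes, 9 of 36 were tested, all 9 were lower, and the median was -0.19. The spindle checkpoint gene Mad2l1 stood at -0.39 (limma adjusted p = 0.320), the midzone protein Prc1 at -0.35, the chromatin protein Hmgb2 at -0.29 and the spindle protein Nusap1 at -0.20. Hmgb2 was detected on 6 WT and 3 SIRT1tg arrays, and Nusap1 on 4 and 2. Both met the limit of 6 arrays mainly through WT, where they were higher. Their place in these counts is therefore not independent of their direction. Top2a, which untangles replicated chromosomes, was detected on 1 of 12 arrays. The genes tested are those with signal on at least 6 arrays, and the list as a whole was not measured.

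Of the genes of G1 cyclins, their kinases and the Rb-E2F switch, 16 of 26 were tested, 7 lower and 9 higher, with a median of 0.02. Rbl2, among the lower genes at -0.15, was detected on 6 WT arrays and 1 SIRT1tg array. It met the limit of 6 arrays mainly through WT, so its place in these counts is not independent of its direction. Cyclin D2 (Ccnd2) stood at -0.68 (limma adjusted p = 0.110), the MuvB subunit Lin54 at -0.26, the E2F partner Tfdp2 at 0.22 and the retinoblastoma gene Rb1 at 0.18. Of the CDK inhibitors and brakes, 11 of 16 were tested, 6 lower and 5 higher, with a median of -0.01. Ccng2, an unusual cyclin linked to arrest, stood at 0.69 (limma adjusted p = 0.0559), and Cdkn1a, the inhibitor p21, at 1.08 (0.0763). For Cdkn1a the log2 signal was 9.04 to 10.40 (median 9.63) in WT and 10.25 to 11.38 (median 10.59) in SIRT1tg, so the groups overlapped. Gadd45a stood at -0.45 and the antiproliferative gene Btg1 at 0.43.

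**Figure D4:**
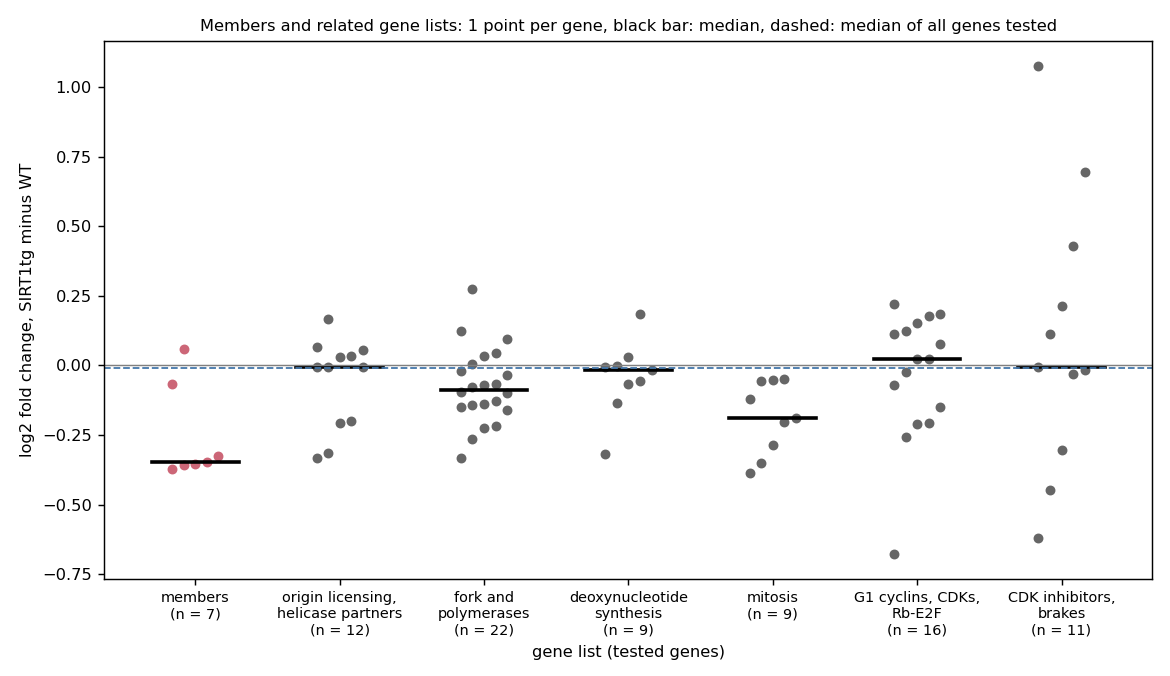
Log2 difference between SIRT1tg and WT for each tested gene of the members and of 6 related lists, 1 point per gene, with the median of the list as a black bar and the median of all genes tested as a dashed line. The 9 mitosis genes lie below 0, while Cdkn1a at 1.08 and Ccng2 at 0.69 are the highest points among the brakes.

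Markers of other cell types were read beside the members, since brown fat holds immune, stromal and vascular cells. Macrophage markers were lower in 11 of 12 tested genes of a list of 19, their summed linear signal being 1767 to 4650 in WT and 1367 to 2639 in SIRT1tg. WT 3 at 4650 and WT 4 at 4122 were the highest of the 12 arrays. Laptm5 and Lyz2, the brightest of the list, stood at -0.58 and -0.96, while Itgam and Msr1 were detected on 0 arrays.

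Leaving out WT 3 and WT 4, an alternative added after the data were seen, the median difference of the 9 tested member probes was -0.18, and 3 probes were lower at an unadjusted p under 0.05. These 2 arrays were also the highest of all in the averaged signal of the members, so leaving them out lowers the difference by its choice and is no test of macrophage content. The part of macrophage content in the members' differences was not tested. Lymphocyte markers were lower in 4 of 6 tested genes of a list of 14. Their summed signal was 150 to 244 in WT and 137 to 243 in SIRT1tg. The brightest, Nkg7 and Cd3d, stood at -0.26 and -0.23. The tested genes ran from -0.52 (Cd79b, limma adjusted p = 0.0608) to 0.07 (Cd3e), and Cd4, Cd8a and Ptprc were detected on 0 arrays.

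Fibroblast and preadipocyte markers were lower in 11 of 13 tested genes of a list of 14, with summed signals of 3019 to 5685 in WT and 2806 to 3514 in SIRT1tg. Their brightest genes, the matrix genes Dcn and Dpt, stood at -0.37 and -0.29. The tested genes of this list ran from -1.06 (Lum, limma adjusted p = 0.0616) to 0.04 (Pdgfrb). Endothelial markers were lower in 3 of 11 tested genes of 14 (2931 to 4456 and 3531 to 4505). The brightest, Egfl7 and Flt1, stood at -0.04 and 0.28. The tested genes ran from -0.04 (Egfl7) to 0.63 (Sox18, limma adjusted p = 0.0587), and Kdr and Erg were detected on 0 arrays.

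Skeletal muscle markers were lower in 14 of 14 tested genes of 16, but ranged from 2307 to 17904 in WT and from 2490 to 21745 in SIRT1tg, with Myl1 at -0.24 and Atp2a1 at -2.15. Erythroid markers were lower in 1 of 4 tested genes of 10 (4993 to 11547 and 4131 to 14125), with Hba-a1 at 0.12 and Alas2 at 0.13. The part of these cell types in the members' differences was not tested. Brown adipocyte markers, which check the tissue, had summed signals of 54076 to 64486 in WT and 58117 to 61340 in SIRT1tg, and were lower in 5 of 12 tested genes of 14. Cidea and Cox8b stood at 0.01 and -0.02, while Prdm16 was detected on 0 and Dio2 on 2 arrays.

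Averaged over the 7 tested member genes, each centred on its mean over the 12 arrays, the log2 signal stood at 0.03 to 0.28 (median 0.11) on the WT arrays and at -0.29 to -0.05 (median -0.10) on the SIRT1tg arrays. WT 4 stood highest and SIRT1tg 1 lowest, and the groups did not overlap, which is a description only, since the genes were chosen with results of these arrays known. The genes whose signal followed this average most closely over the 12 arrays were Phf11d (Pearson r = 0.93), Prkd3 (0.88), Hk3 (0.87), Uap1l1 (0.87) and Arhgap30 (0.86). These arrays share the group difference, so the correlations describe it in part. Hk3, and the Cdk1 probe within the average, were each detected on 5 WT arrays and 1 SIRT1tg array. Both reached the limit of 6 arrays mainly through the group where they were higher. The 5 genes stood at -0.44, -0.37, -0.46, -0.42 and -0.65 in the same order, and 0 of them passed, the lowest limma adjusted p being 0.0658, for Arhgap30.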

How the data were processed

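Biotin-labelled cRNA of 12 brown adipose tissue samples was put on Illumina bead arrays (per the labels' protocols). GenomeStudio is named in the submitters' processing notes, with a version not given in the sources used here. The authors deposited non-normalised bead intensity values on a linear scale with a detection p-value for each probe and array, per the file headers, and a second deposited table of intensity values that they had processed. By their values the latter were background-subtracted, since 26.1% lay at or below 0, and the common upper quartile of 57.7 in all 12 columns shows that arrays had been normalised to each other, by a method not given. The column medians of that table were 5.70 to 5.76, so it was not centred.

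In R 4.3.3 with limma 3.58.1, the non-normalised intensities were background-corrected through the detection p-values, given an offset of 16, quantile-normalised and put on the log2 scale (neqc). A probe was tested if 6 or more of the 12 arrays gave it a detection p under 0.05, with lmFit and eBayes, each probe alone, with Benjamini-Hochberg adjustment over all 11413 of them and a threshold of 0.05. Processed values under 10 were set to 10 before log2. Probe genes come from GEO's platform annotation, which gives 23978 probes 1 symbol, 0 several and 1719 none. For gene lists and the averaged profile, each gene was read by its brightest tested probe. Genes named from the pathway lists are the up to 4 with the smallest p, and from the cell type lists the 2 brightest, and those set beside the members are the 5 with the highest correlation to their averaged profile. Genes at the ends of some cell type lists, and Rbl2 for its detection, were named as well. Background correction, normalisation, filters, weights, blocks and left-out arrays were varied. The fit was checked on simulated data. The members and lists were chosen with earlier results of these data known.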

Additional observations from a re-analysis of the deposited data

Results flagged for a closer look

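Within a group of 6 arrays, the highest or lowest array was flagged where its gap to the nearest array as a share of the range of the group exceeded Dixon's 95% critical value, and chance flags about 1 in 20 groups. Of 20 groups tested, which were the 9 tested member probes and their averaged profile in each genotype, 3 were flagged. For Rrm1, WT 6 read a log2 signal of 6.80 against 6.40 on the next array, a gap of 0.721 of the range. Rrm1 also had SIRT1tg 1 at 5.54 against 6.12 on the next array, a gap of 0.805 of the range. In the averaged profile of the 7 tested member genes, SIRT1tg 1 stood at -0.29 against -0.13 on the next array, a gap of 0.669 of the range. That profile contains Rrm1, so its flag is not separate from the flag of SIRT1tg 1 in Rrm1. The groups are therefore not independent, and the count of flags cannot be set directly against 1 in 20. Without SIRT1tg 1 the difference of Rrm1 between genotypes was -0.24, compared with -0.35 on all arrays.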

How the results depend on the processing

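In every setting tried 0 member probes passed the threshold, with the lowest limma adjusted p of any member at 0.0754 (Cdk1, without WT 1). The median difference of the tested member probes stayed below 0, at -0.15 with an offset of 50, -0.10 with no background correction, -0.43 with the processed values, -0.21 on the low-numbered arrays alone and -0.18 without WT 3 and WT 4, and between -0.33 and -0.26 with 1 array left out. The number of all probes that passed, 18 in the reported fit, was 5 with median scaling, 237 with array weights, 33 with a robust trended prior, 110 with the number range as a block, 4 and 5 on the low- and high-numbered arrays alone, 12 with 1 probe per gene, and from 4 (without SIRT1tg 2 or SIRT1tg 3) to 203 (without WT 1) with 1 array left out. It was 121 without WT 4, and only leaving out SIRT1tg 1 (25 probes) kept it within 1.5 times. The count of 5 member probes lower at an unadjusted p under 0.05 was 3 without WT 3 and also 3 without WT 3 and WT 4, 2 in each number range alone, and 6 without WT 5. That count was 4 with array weights and without WT 1, WT 2, WT 4, WT 6, SIRT1tg 1, SIRT1tg 5 or SIRT1tg 6. In the processed table it was 4 with values under 16 set to 16. The member probes lower in SIRT1tg numbered 7 without WT 1, without WT 4, and without WT 3 and WT 4. A detection p under 0.01 left 6 member probes, all lower, 4 of them at an unadjusted p under 0.05. The matching shares of all probes in that fit were not worked out. Directions turned for Mcm6 ILMN_1217331 (0.029 on the high-numbered arrays, 0.10 without WT 3 and WT 4, and -0.15 to 0.017 with 1 array left out), Pcna (-0.016 on the high-numbered arrays) and Rrm2b (0.012 on the low-numbered arrays), and the cause was not tested. Ccng2 passed in 4 and Cdkn1a in 3 of 15 other settings, and in 2 and 1 of 12 with an array left out. Median scaling moved the median of all probes to -0.09. The replicate numbers of the labels, carried by the processed table alone, were not taken as pairs, since the deviations of same-numbered samples correlated at -0.10 to 0.43, over 0.1 for 4 of 6 numbers and not for all. That 4 of 6 WT samples correlated best with their own number, with a median of -0.05 between other numbers, is a hint of pairing from the data that the labels do not state. With the replicate number as a block in that table the median of the tested member probes was -0.43, 14 of the probes tested passed against 20 without it, and 0 members did. With the member probes below the filter added, 13 passed against 19. Under the block the unadjusted p moved from 0.0445 to 0.0722 for Tyms ILMN_2484707 and from 0.0717 to 0.0426 for Mcm6 ILMN_2803399. Signal over background kept 12 of 21 member probes below the detection filter, and 4 probes detected on all 12 arrays did not pass either.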
